A study of Mus musculus with 18 samples.

Results

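Wild-type long-term haematopoietic stem cells (LT-HSC) labelled Wnt5a were compared with wild-type LT-HSC without that label, as 6 of the 18 RNA-seq libraries of a study of the DERARE knockout mouse. DERARE is an enhancer of the Hoxb genes that responds to retinoic acid. The 3 Wnt5a and 3 WT libraries were chosen by their labels and the column names of the deposited table, which place the Wnt5a columns in the wild-type set. Of 44349 genes in the table, 11982 reached 1 FPKM (fragments per kilobase of transcript, scaled to the mapped fragments of the library) in at least 3 of the 6 libraries and were tested. The other groups compared here, KO Wnt5a and KO Ctrl, are LT-HSC of the DERARE knockout with and without the Wnt5a label, 3 libraries each. Their genotype entries read Wnt5a knockout rescue for KO Wnt5a and knockout wt control for KO Ctrl. The WT Reserve and KO Reserve libraries, 3 each, were not compared. They still entered every SE and p-value, because the fit shared 1 spread per gene over all 18 libraries. Cells came from bone marrow and were sorted as lineage-negative, Sca-1+, c-Kit+, CD34-, Flk2- and CD49b low, a gate given for the series as a whole. The labels record Wnt5a as a genotype and say neither how the cells met it nor for how long. Whether replicates are separate mice is not recorded. Every p-value here therefore measures only the spread between libraries of a group, pooled over the 18 libraries, which may be technical.

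Wnt5a is a secreted ligand of noncanonical Wnt signalling. It binds Frizzled receptors with the co-receptors Ror1, Ror2 and Ryk and acts through the planar polarity branch, which runs over small GTPases and the cytoskeleton, or through calcium, calcineurin and NFAT, rather than through beta-catenin. LT-HSC are rare, mostly quiescent cells that rebuild all blood lineages after transplantation. Some of them are primed towards the megakaryocyte lineage and carry platelet transcripts.

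Depth, read from the smallest steps between FPKM values, was 31500000, 31200000 and 29500000 fragments in the Wnt5a and 36100000, 35700000 and 40200000 in the WT libraries. Every Wnt5a library was shallower than every WT library, and the part of depth in the results was not tested. At that depth a 1 kb transcript with 3 fragments has 0.0747 to 0.102 FPKM. These floors cover counting error only, since amplified fragments are not independent molecules. Wnt5a replicate 3 stood apart from the other Wnt5a libraries. Across the genes tested its log2 values correlated at 0.967 and 0.966 with Wnt5a replicates 1 and 2, and at 0.974, 0.969 and 0.968 with WT replicates 1 to 3. On the first principal component of the 6 libraries, which held 28.8% of the variance, Wnt5a replicates 1, 2 and 3 lay at 27.66, 30.74 and -8.48, and the WT libraries at -13.65, -11.24 and -25.02. Values without that library are given beside the results that it moved.

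All 11 LT-HSC markers, among them Procr, Slamf1, Hlf, Mecom and Meis1, passed the filter, and their summed level was 431 to 471 FPKM in Wnt5a and 415 to 453 FPKM in WT libraries. The lineage genes Cd3e, Cd4, Cd8a, Itgam and Ly6g stayed under 1 FPKM in every library, as did Flt3, which encodes Flk2, and Itga2, which encodes CD49b. Cd34 went against the CD34- gate at the RNA level, with 322 to 357 FPKM in Wnt5a and 341 to 370 FPKM in WT libraries. Transcripts of Xist and of Y-linked genes such as Ddx3y were present in each library. In short panels, markers of mast cells were under 1 FPKM in all 6 libraries for 6 of 6 genes, and those of eosinophils for 5 of 5. A wider mast cell list, given below with the basophil genes, held 7 genes past the filter. Levels in such bulk samples do not tell fewer cells of a type from less RNA per cell.

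The 2 genes with the smallest p-values encode basophil proteases. Prss34, which encodes a serine protease of basophils, had 19.1, 54.2 and 34.8 FPKM in the Wnt5a libraries, against 0.024 FPKM in WT replicate 1 and 0 in WT replicates 2 and 3. Every WT value lay under the floor of 3 fragments per kb, and the groups did not overlap. Prss34 therefore passed the filter through its Wnt5a values alone, and it was also called with no filter. The log2 fold change on the log2(FPKM + 1) scale was 5.08 (SE 0.24, limma adjusted p = 5.5e-10), a size that depends on the pseudocount and is no bound. It was 8.27 with a pseudocount of 0.1. Mcpt8, another basophil granule protease, had 39.8, 80.2 and 55.2 FPKM in Wnt5a, against 6.69, 7.72 and 7.998 FPKM in WT libraries. Its lowest Wnt5a value was several times its highest WT value, and it rose 7.82-fold in mean FPKM (log2 fold change 2.76, SE 0.31, adjusted p = 0.000594). With a pseudocount of 0.1 the adjusted p of Mcpt8 was 0.197.

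Over all genes tested, limma called 8 at an adjusted p below 0.05, 0.0668% of them. Of these 6 were higher (0.0501%) and 2 lower (0.0167%) in Wnt5a. The split was 6 and 6 with quantile normalization, 5 and 3 with median-ratio scaling and 6 and 4 with a trend along transcript length removed. Without the threshold on multiple tests, 614 genes (5.12%) were higher and 476 (3.97%) lower at an unadjusted p below 0.05. The 3 and 3 values of 1513 genes (12.6%) did not overlap with Wnt5a higher, and those of 1307 (10.9%) with Wnt5a lower. Leaving out Wnt5a replicate 3 gave 10 higher (0.0835%) and 22 lower (0.184%) genes, while leaving out any other of the 6 libraries gave 3 to 5 genes in all. Prss34 and Clec12a kept their call in all 6 fits that left out a library, and so did Mcpt8.

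The called genes lie apart in the genome except for the immunoglobulin segments. On GRCm38, Prss34 lies at chr17:25298394-25300165, Mcpt8 at chr14:56082166-56085273, Lgals3 at chr14:47367751-47386160 and Cd28 at chr1:60716800-60773359. Clec12a lies at chr6:129342691-129365303, Tcrg-C4 at chr13:19344558-19352756, Ighv1-18 at chr12:114682632-114683065 and Ighv10-3 at chr12:114523441-114523905, each span covering the whole annotated gene.

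**Figure D1:**
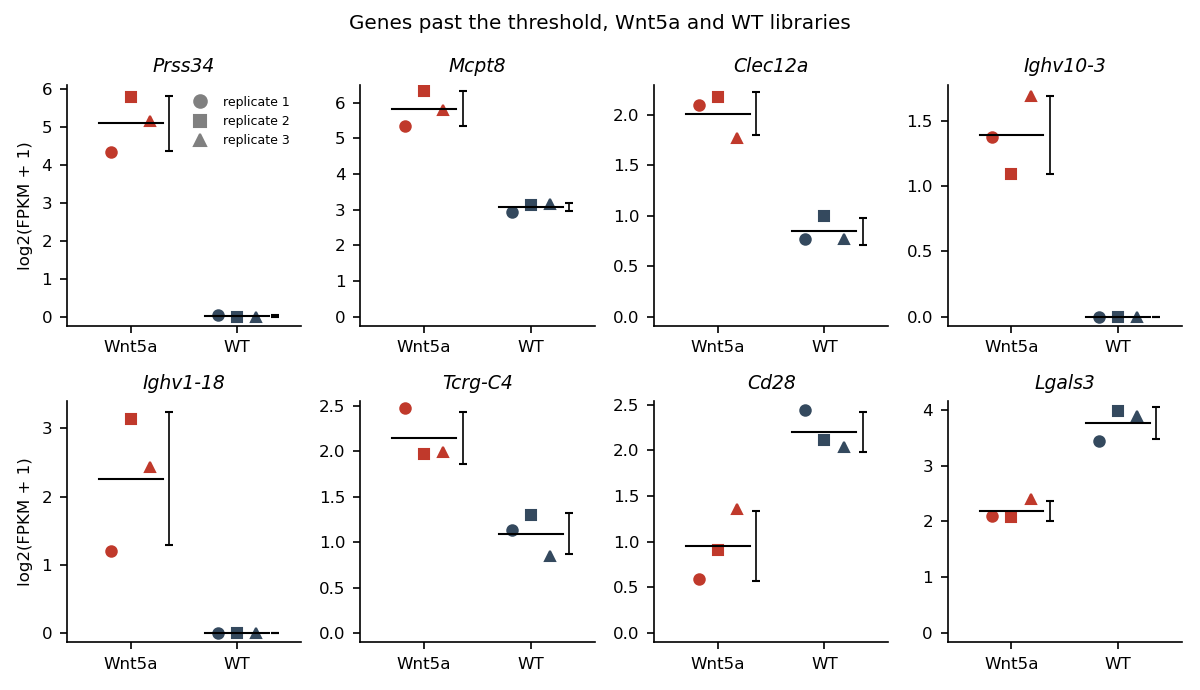
Level of the 8 called genes as log2(FPKM + 1) in each library, with Wnt5a on the left and WT on the right of each panel. Symbols mark the replicate, horizontal lines the group mean and bars 1 SD (n = 3). The 2 groups do not overlap in any panel.

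Other genes of the basophil and mast cell programme were read beside these proteases. Of 17 basophil markers tested, 6 were higher and 2 lower at an unadjusted p below 0.05, where 5.12% and 3.97% of all genes were, and 2 passed the adjusted threshold. Signs were mixed, with 9 positive and 8 negative and a median log2 fold change of 0.20 against 0.02 over all genes. The per-library medians were -0.17, 0.40 and 0.22 in Wnt5a and 0.02, 0.04 and 0.07 in WT, which overlap. Cpa3, a mast cell and basophil carboxypeptidase, had 8.34, 18.6 and 11.8 FPKM in Wnt5a, against 5.06, 3.18 and 4.71 FPKM in WT libraries. Fcer1a, the alpha chain of the high-affinity IgE receptor, had 9.22, 8.22 and 6.67 FPKM in Wnt5a, against 4.19, 4.23 and 1.53 FPKM in WT libraries. Neither gene overlapped between the groups, and neither passed (adjusted p = 0.308 and 0.343). Cd200r3, a basophil surface receptor under the filter, had 0.283, 1.45 and 1.42 FPKM in Wnt5a, against 0, 0.013 and 0.171 FPKM in WT libraries. Gata2, a transcription factor shared by stem cells, mast cells and basophils, was at 48.0, 62.6 and 49.1 FPKM in Wnt5a and at 61.7, 67.9 and 59.8 FPKM in WT libraries, and these ranges overlapped. The summed level of 8 basophil markers was 129, 230 and 163 FPKM in Wnt5a, against 79.9, 86.4 and 75.6 FPKM in WT libraries. Prss34 and Mcpt8, the 2 called genes, are part of that sum, which is therefore no separate support for a rise of the panel. Gata2 was the largest of its other members, and its ranges overlapped. The sum over all 22 listed basophil markers with values, tested or not, overlapped. It was 573, 642 and 827 FPKM in Wnt5a and 654, 711 and 826 FPKM in WT libraries, most of it Fcer1g. Fcer1g, the signalling chain shared by many Fc receptors, was lower at an unadjusted p below 0.05, with 418, 377 and 632 FPKM in Wnt5a and 547, 593 and 718 FPKM in WT libraries (-0.41, SE 0.18, adjusted p = 0.537), ranges that overlap. The other lower marker was Osm, the cytokine oncostatin M, with 1.98, 1.60 and 2.62 FPKM in Wnt5a and 2.93, 4.24 and 5.31 FPKM in WT libraries (-0.74, SE 0.30, adjusted p = 0.482). The mast cell proteases Mcpt4 and Tpsb2 were at 0 in each library. Of 7 genes tested from a wider mast cell list, 3 were higher and 1 lower at an unadjusted p below 0.05. Of all genes 5.12% and 3.97% were. The median log2 fold change of that list was 0.32, with 6 positive and 1 negative. Its 20 genes with values summed to 71.4, 95.6 and 67.6 FPKM in Wnt5a and 63.3, 59.3 and 52.0 FPKM in WT libraries.

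The promoters of 4 genes of this group are shown because the genes share a direction and GATA factors are known regulators of mast cell and basophil genes. Sequences are RefSeq windows from GRCm38.p6, 250 bases before to 50 bases after the annotated start, written 5′ to 3′ on the strand of the gene. Capitals mark GATAA on either strand (TTATC where it lies on the other strand). The windows are chr17:25298144-25298443 on the plus strand for Prss34, and on the minus strand chr14:56085148-56085447 for Mcpt8, chr3:20242132-20242431 for Cpa3 and chr1:173227180-173227479 for Fcer1a.
Prss34: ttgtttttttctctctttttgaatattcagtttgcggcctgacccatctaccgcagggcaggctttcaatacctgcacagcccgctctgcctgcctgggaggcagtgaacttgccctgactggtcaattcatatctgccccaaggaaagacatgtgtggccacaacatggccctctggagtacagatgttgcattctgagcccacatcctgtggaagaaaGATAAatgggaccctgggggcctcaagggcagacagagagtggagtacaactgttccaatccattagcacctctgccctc
Mcpt8: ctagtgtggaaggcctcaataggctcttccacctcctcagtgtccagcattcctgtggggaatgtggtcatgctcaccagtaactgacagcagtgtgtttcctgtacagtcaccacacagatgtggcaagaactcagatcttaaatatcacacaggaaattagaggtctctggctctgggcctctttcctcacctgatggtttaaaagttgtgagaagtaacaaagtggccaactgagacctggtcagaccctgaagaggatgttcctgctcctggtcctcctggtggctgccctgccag
Cpa3: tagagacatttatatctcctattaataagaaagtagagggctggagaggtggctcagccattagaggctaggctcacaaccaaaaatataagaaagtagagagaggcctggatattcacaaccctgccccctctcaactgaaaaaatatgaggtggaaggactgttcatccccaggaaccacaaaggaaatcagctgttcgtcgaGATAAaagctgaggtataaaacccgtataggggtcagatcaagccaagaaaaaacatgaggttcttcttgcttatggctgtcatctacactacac
Fcer1a: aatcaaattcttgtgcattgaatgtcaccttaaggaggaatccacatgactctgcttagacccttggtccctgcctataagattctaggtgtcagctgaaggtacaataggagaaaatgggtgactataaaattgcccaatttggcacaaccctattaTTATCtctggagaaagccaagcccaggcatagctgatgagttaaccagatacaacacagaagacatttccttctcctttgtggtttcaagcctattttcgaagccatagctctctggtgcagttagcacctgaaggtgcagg

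The matches begin 30, 45 and 92 bases before the start of Prss34, Cpa3 and Fcer1a, and the window of Mcpt8 holds none. GATAA occurred in 8 of the 20 windows of basophil markers tested (40.0%), in 16.6% of 11163 windows of all genes tested and in 25.4% of the 32851 windows in the table. These matches describe the letters of the windows and are not binding sites.

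Clec12a, an inhibitory C-type lectin receptor of myeloid cells, rose to 3.26, 3.50 and 2.40 FPKM in Wnt5a, against 0.705, 1 and 0.701 FPKM in WT libraries (log2 fold change 1.16, SE 0.15, adjusted p = 0.0021). It stayed past the threshold in all 17 alternatives in which it was tested, which leave out the filter of a mean of at least 5 FPKM. WT replicates 1 and 3 of Clec12a were under 1 FPKM, and its Wnt5a values alone were enough to pass the filter. The filter thus favoured a difference. The call also held with no filter (adjusted p = 0.00272). Tcrg-C4, a constant segment of the T cell receptor gamma locus, rose to 4.54, 2.92 and 2.97 FPKM, against 1.20, 1.45 and 0.799 FPKM in WT libraries (1.05, SE 0.18, adjusted p = 0.029). Tcrg-C4 kept its call in 1 of 6 fits that left out a library, the fit without Wnt5a replicate 3, and its adjusted p reached 0.274 without Wnt5a replicate 1. It also lost the call with no filter, with median-ratio scaling and with fewer libraries in the fit. Among monocyte, macrophage and dendritic cell markers, 4 of 16 were higher and 0 lower at an unadjusted p below 0.05, where 5.12% and 3.97% of all genes were. Without Wnt5a replicate 3 these were 7 and 3, with 7.13% and 5.83% of all genes. Of these markers 2 were then called as higher, where 0.0835% of all genes were. Ccr2, a chemokine receptor of monocytes, had 2.72, 1.92 and 1.19 FPKM in Wnt5a, against 0.674, 0.671 and 0.358 FPKM in WT libraries, with no overlap (0.88, SE 0.21, adjusted p = 0.268, and 0.0486 without Wnt5a replicate 3). Every WT value of Ccr2 was under 1 FPKM, so it passed the filter through its Wnt5a values alone. The filter itself thus chose a difference, which these values do not support independently. Csf1r, Adgre1 and C1qa, which define monocytes and macrophages, were under 1 FPKM in every library. The summed level of 6 such markers, mostly Lyz2, was 113, 100.3 and 147 FPKM in Wnt5a, against 129, 149 and 142 FPKM in WT libraries, ranges that overlap.

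Both called immunoglobulin heavy chain variable segments were listed at 0 in each WT library. Ighv1-18 had 1.31, 7.81 and 4.43 FPKM, and Ighv10-3 had 1.60, 1.14 and 2.23 FPKM in the Wnt5a libraries (adjusted p = 0.029 for both). With WT at 0, each passed the filter only because all its Wnt5a values reached 1 FPKM, so the filter itself chose a difference and the calls are no independent support for it. Both calls were lost with quantile normalization (adjusted p = 0.0529 and 0.0748), and that of Ighv1-18 also with no filter, a pseudocount of 0.1 and only the 6 libraries. No fold is given against a group at 0, and segments of this family are near-identical, so that fragments can be assigned to a relative. Only 6 of 185 Ighv segments passed the filter, and the summed level over all 185 was 9.99, 25.1 and 16.4 FPKM in Wnt5a, against 15.02, 8.21 and 8.17 FPKM in WT libraries, ranges that overlap. Each segment kept its call in 2 of 6 fits that left out a library. Igkc and Jchain, which plasma cells carry at high levels, were at most 1.36 FPKM in any library.

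Of the called genes 2 fell. Lgals3, which encodes the galactose-binding lectin galectin-3, had 3.27, 3.22 and 4.26 FPKM in Wnt5a, against 9.82, 14.7 and 13.8 FPKM in WT libraries (log2 fold change -1.58, SE 0.28, adjusted p = 0.0342). Cd28, a co-stimulatory receptor best known from T cells, had 0.508, 0.875 and 1.57 FPKM in Wnt5a, against 4.46, 3.34 and 3.11 FPKM in WT libraries (-1.25, SE 0.21, adjusted p = 0.029). For both genes the Wnt5a values lay below each WT value, and Wnt5a replicate 3 was the highest of the Wnt5a libraries. The calls of both held in 1 of 6 fits that left out a library, the fit without Wnt5a replicate 3, and the highest adjusted p was 0.274. Lgals3 was called in 6 of 18 alternatives, and lost the call also with a pseudocount of 0.1, each other filter, no moderation trend, the 12 libraries and the replicate block (adjusted p = 0.0546). Cd28 was called in 8 of 17, and lost the call also with a pseudocount of 0.1, no filter and only 6 or 12 libraries. Wnt5a replicates 1 and 2 of Cd28 were under 1 FPKM, and its WT values alone were enough to pass the filter. The filter thus favoured a difference for Cd28.

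Large folds mostly belonged to short noncoding transcripts with wide spread. Of 68 genes with a log2 fold change above 2 or below -2, 44 higher and 24 lower, 60 are annotated as small RNA genes and 3 were called. Mir1934 had 38.8, 78.8 and 41.7 FPKM in Wnt5a and was listed at 0 in each WT library (adjusted p = 0.377). Mir6385, which lies inside Pml on the other strand, was at 0 in each Wnt5a library and at 21.6, 32.7 and 29.1 FPKM in WT libraries (adjusted p = 0.343). Mir1934 and Mir6385 each passed the filter through a single group. The FPKM of such a short transcript rests on few fragments, and the libraries kept no strand. The small nucleolar RNA Snora7a had 64.2, 53.9 and 58.6 FPKM in Wnt5a, against 13.4, 21.8 and 24.7 FPKM in WT libraries (1.55, SE 0.33, adjusted p = 0.19).

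**Figure D2:**
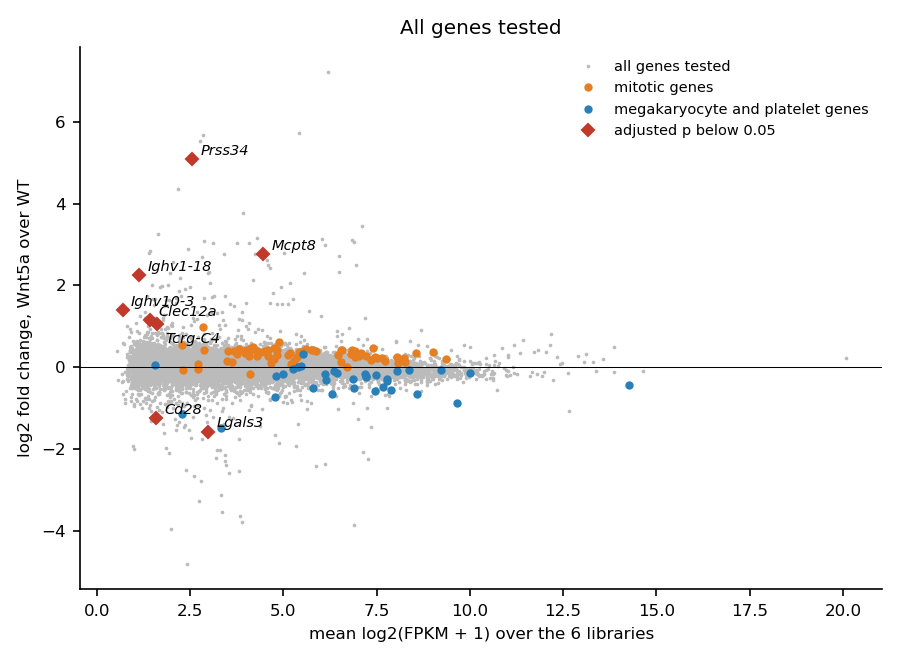
Log2 fold change of Wnt5a over WT against the mean log2(FPKM + 1) over the 6 libraries for the 11982 genes tested. Diamonds mark the 8 called genes, orange points the 71 mitotic genes, of which 67 lie above 0, and blue points the 34 megakaryocyte and platelet genes, of which 31 lie below it.

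Mitotic genes had higher values in Wnt5a than in WT libraries, most of all in Wnt5a replicates 1 and 2. Of 71 tested, 38 (53.5%) were higher and 0 lower at an unadjusted p below 0.05, where 5.12% and 3.97% of all genes were, and none passed the adjusted threshold (smallest adjusted p = 0.268). Their median log2 fold change was 0.32, and 67 of 71 were positive. The per-library medians, relative to the WT mean, were 0.43, 0.37 and 0.14 in Wnt5a and -0.01, 0.05 and -0.05 in WT, so that Wnt5a replicate 3 lay nearest to WT but above it. Without that library the median was 0.41, with 50 of 71 higher, where 7.13% of all genes were. Of the list 2 then passed the adjusted threshold with higher values, where 0.0835% of all genes did.

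Ect2, the exchange factor that starts the cleavage furrow, had 11.4, 9.44 and 6.995 FPKM in Wnt5a, against 3.34, 4.91 and 4.24 FPKM in WT libraries (log2 fold change 0.98, SE 0.24, adjusted p = 0.268). Mki67, the proliferation antigen Ki-67, had 21.7, 21.6 and 16.4 FPKM in Wnt5a, against 13.6, 15.2 and 13.6 FPKM in WT libraries (0.46, SE 0.12, adjusted p = 0.28). Ube2c, the ubiquitin-conjugating enzyme of the anaphase-promoting complex, had 458, 385 and 427 FPKM in Wnt5a, against 314, 360 and 327 FPKM in WT libraries (0.34, SE 0.09, adjusted p = 0.28). For each of these 3 genes the Wnt5a values lay above every WT value. Kif11, the spindle motor Eg5, had 31.2, 33.1 and 27.1 FPKM in Wnt5a, against 25.5, 20.6 and 19.8 FPKM in WT libraries, again with no overlap. Without Wnt5a replicate 3, Mki67 passed (0.59, adjusted p = 0.0486), as did Top2a, the topoisomerase of mitotic chromosomes, at 132 and 133 FPKM in the Wnt5a libraries kept, against 97.6, 100.2 and 99.5 FPKM in WT libraries.

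Promoters of 3 mitotic genes are shown because many genes of mitosis are known to carry a cell cycle homology region, a site of the DREAM complex with the core TTTGAA. The RefSeq windows are on GRCm38.p6, chr7:135716330-135716629 (minus strand) for Mki67, chr3:27153805-27154104 (minus strand) for Ect2 and chr2:164769679-164769978 (plus strand) for Ube2c, with TTTGAA on either strand in capitals (TTCAAA where it lies on the other strand).
Mki67: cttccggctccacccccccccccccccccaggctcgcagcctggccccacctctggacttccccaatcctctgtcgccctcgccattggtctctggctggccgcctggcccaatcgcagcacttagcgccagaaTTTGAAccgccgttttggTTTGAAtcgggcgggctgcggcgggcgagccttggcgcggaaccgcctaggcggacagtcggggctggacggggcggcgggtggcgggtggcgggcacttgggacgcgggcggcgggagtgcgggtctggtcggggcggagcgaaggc
Ect2: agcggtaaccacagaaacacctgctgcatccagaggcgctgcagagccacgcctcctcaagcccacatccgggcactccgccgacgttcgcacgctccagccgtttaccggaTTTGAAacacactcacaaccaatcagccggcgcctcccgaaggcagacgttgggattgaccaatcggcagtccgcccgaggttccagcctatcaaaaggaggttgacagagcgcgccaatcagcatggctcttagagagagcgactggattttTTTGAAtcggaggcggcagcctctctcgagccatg
Ube2c: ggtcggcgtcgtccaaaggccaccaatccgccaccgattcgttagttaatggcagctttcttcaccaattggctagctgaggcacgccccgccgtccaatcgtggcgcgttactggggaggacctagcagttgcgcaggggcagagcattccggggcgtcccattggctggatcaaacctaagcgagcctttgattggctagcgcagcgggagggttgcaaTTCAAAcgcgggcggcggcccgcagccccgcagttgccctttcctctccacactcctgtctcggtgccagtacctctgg

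TTTGAA occurred in 46 of 63 windows of the mitotic genes tested (73.0%), in 12.5% of the windows of all genes tested and in 17.9% of all windows. The table held a window for 59 of the 71 mitotic genes. DNA replication genes, which act before mitosis, had a median of 0.05. At an unadjusted p below 0.05, 1 of 46 was higher and 0 lower, where 5.12% and 3.97% of all genes were. Without Wnt5a replicate 3 the replication median was 0.14, with 6 higher and 0 lower, where 7.13% and 5.83% of all genes were. The per-library medians of replication genes were 0.08, 0.21 and -0.13 in Wnt5a and 0.04, 0.06 and -0.09 in WT, which overlap.

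**Figure D3:**
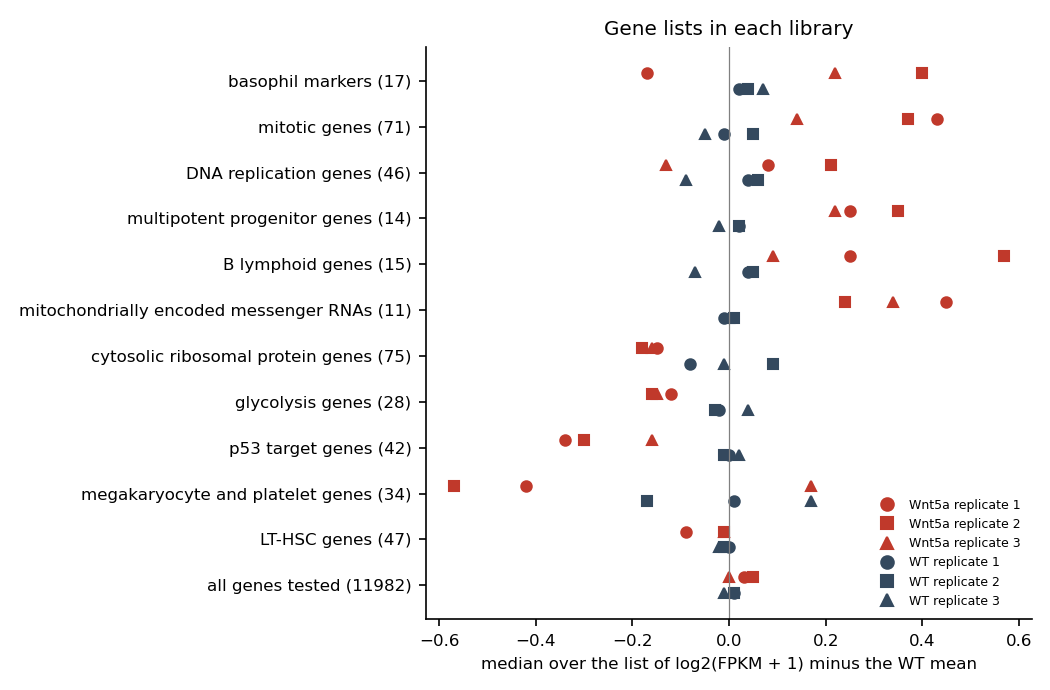
Median over each gene list of log2(FPKM + 1) minus the WT mean, in each library, with the number of genes tested in brackets. Red points are Wnt5a and dark points WT libraries. Mitotic genes lie at 0.14 to 0.43 in Wnt5a and -0.05 to 0.05 in WT, and megakaryocyte and platelet genes at 0.17 in Wnt5a replicate 3 against -0.42 and -0.57 in the other Wnt5a libraries.

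Targets of p53, the stress-response transcription factor, had lower values in Wnt5a than in WT libraries. Of 42 tested, 14 (33.3%) had an unadjusted p below 0.05 with lower values and 1 with higher, where 3.97% and 5.12% of all genes had, none past the adjusted threshold, with a median log2 fold change of -0.23 and 33 of 42 negative. The list medians were -0.34, -0.30 and -0.16 in the Wnt5a and 0.00, -0.01 and 0.02 in the WT libraries. Without Wnt5a replicate 3 the median was -0.34 and 3 genes passed. Cdkn1a, the cell cycle inhibitor p21, had 82.7, 87.4 and 162 FPKM in Wnt5a, against 194, 207 and 233 FPKM in WT libraries (-0.99, SE 0.21, adjusted p = 0.138). Its groups did not overlap, and without Wnt5a replicate 3 it fell by 1.30 on the log2 scale (adjusted p = 0.00219). Phlda3, an inhibitor of Akt signalling, had 27.2, 27.0 and 45.9 FPKM in Wnt5a, against 51.2, 60.3 and 62.0 FPKM in WT libraries (-0.81, SE 0.19, adjusted p = 0.268, and 0.0194 without Wnt5a replicate 3).

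Btg2, an antiproliferative target, was the other gene of this list past the threshold without Wnt5a replicate 3, with 26.1, 26.6 and 41.3 FPKM in Wnt5a, against 45.2, 40.6 and 55.7 FPKM in WT libraries. The pro-apoptotic gene Bax had 219, 210 and 275 FPKM in Wnt5a, against 316, 318 and 355 FPKM in WT libraries. Mdm2, which encodes the ligase that degrades p53, had 51.1, 43.5 and 49.9 FPKM in Wnt5a and 60.3, 44.1 and 54.9 FPKM in WT libraries, ranges that overlap. Trp53 itself had missing values in the table and was not analysed here. Cdkn2b, an inhibitor of cyclin-dependent kinases 4 and 6 outside the p53 list, had 4.59, 2.65 and 4.55 FPKM in Wnt5a, against 6.95, 16.7 and 11.9 FPKM in WT libraries (-1.34, SE 0.33, adjusted p = 0.268).

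The promoter of Cdkn1a at its upstream start is shown because it held the core pair of a p53 site. Capitals mark CATG and CATG with any 6 bases between them, a pattern that reads the same on both strands, 48 bases before the start, in the RefSeq window chr17:29090729-29091028 (GRCm38.p6, plus strand).
Cdkn1a: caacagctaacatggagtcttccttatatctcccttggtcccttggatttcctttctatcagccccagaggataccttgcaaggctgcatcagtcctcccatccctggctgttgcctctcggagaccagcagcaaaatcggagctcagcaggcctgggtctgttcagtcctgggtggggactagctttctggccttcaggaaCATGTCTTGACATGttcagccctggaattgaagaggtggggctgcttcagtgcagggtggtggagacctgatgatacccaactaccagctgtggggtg

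This pattern was found in 1 of 49 windows of the p53 targets tested (2.04%), in 0.296% of the windows of all genes tested and in 0.712% of all windows. Absence from the other windows says only that these letters are not there.

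**Figure D4:**
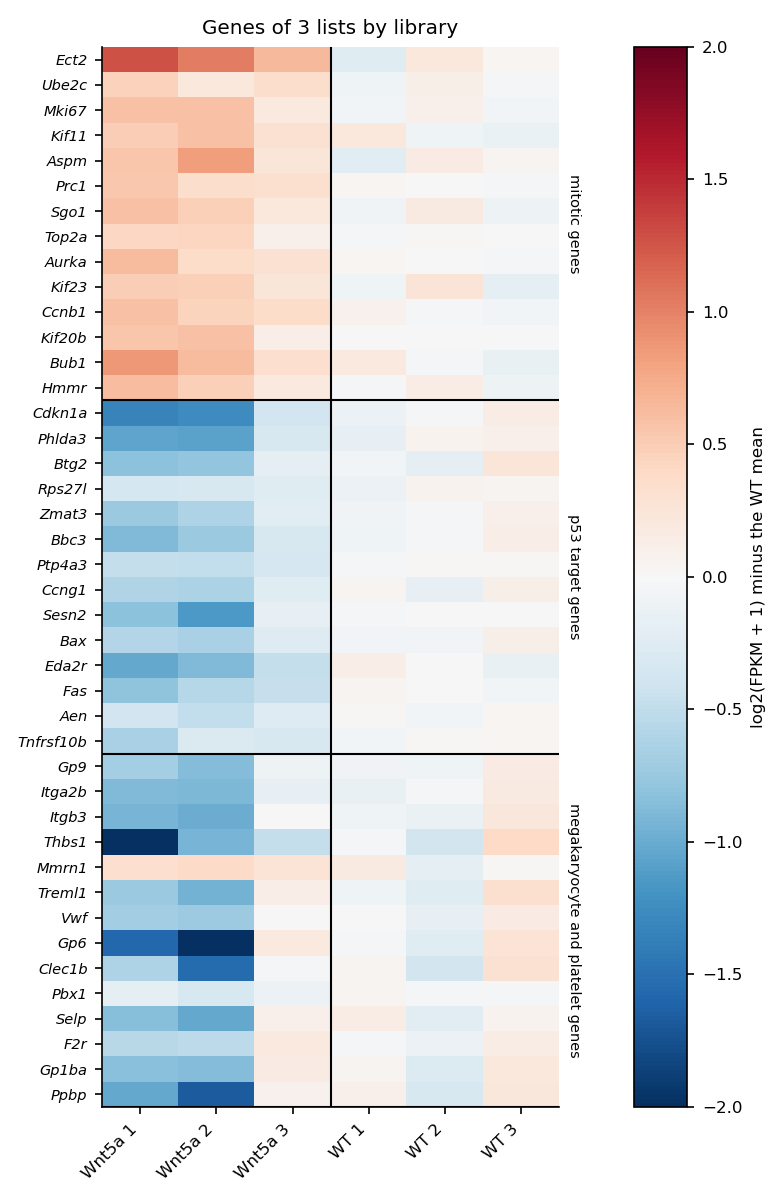
Heat map of log2(FPKM + 1) minus the WT mean for the 14 genes with the smallest p in each of 3 lists (mitotic, p53 target, megakaryocyte and platelet), with the Wnt5a libraries left of the line and the WT libraries right of it. The colour scale ends at -2 and 2. In the column of Wnt5a replicate 3 the shifts of the mitotic and p53 genes are smaller than in the other Wnt5a libraries, and most megakaryocyte genes stand near the WT level.

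Megakaryocyte and platelet genes had lower values in Wnt5a replicates 1 and 2 than in replicate 3. Of 34 tested, 5 (14.7%) had an unadjusted p below 0.05 with lower values and 1 with higher, where 3.97% and 5.12% of all genes had, with a median of -0.23 and 31 of 34 negative. Without Wnt5a replicate 3 the median was -0.53, 19 were lower at an unadjusted p below 0.05, where 5.83% of all genes were, and Gp9 and Itgb3 passed the adjusted threshold. Itga2b, which encodes CD41, had 259, 254 and 423 FPKM in Wnt5a, against 431, 464 and 538 FPKM in WT libraries (-0.65, SE 0.21, adjusted p = 0.395). Gp9, a subunit of the receptor for von Willebrand factor, had 178, 155 and 265 FPKM in Wnt5a, against 272, 267 and 318 FPKM in WT libraries (-0.55, SE 0.16, adjusted p = 0.343, and 0.0194 without Wnt5a replicate 3). The groups did not overlap for these genes, but Wnt5a replicate 3 lay close below the WT range.

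Pf4, the chemokine platelet factor 4, was at 15599.8, 11605.9 and 26280.2 FPKM in Wnt5a and at 21572.9, 18977.0 and 28233.3 FPKM in WT libraries (-0.43, SE 0.32, adjusted p = 0.732). Gp6, the platelet collagen receptor, had 4.61, 0.994 and 18.008 FPKM in Wnt5a, against 15.2, 13.1 and 19.04 FPKM in WT libraries. Slc6a4, the serotonin transporter that platelets use, had 17.5, 5.17 and 76.5 FPKM in Wnt5a, against 78.4, 70.9 and 83.6 FPKM in WT libraries. In all 3 genes Wnt5a replicate 3 lay in the WT range and replicates 1 and 2 below it. Mmrn1, a stored platelet and endothelial protein, went the other way, with 51.1, 52.7 and 49.2 FPKM in Wnt5a and 45.6, 35.0 and 41.2 FPKM in WT libraries.

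Without Wnt5a replicate 3 limma called 32 genes (0.267%), among them all 8 called with it and 24 more, 4 higher and 20 lower. For 23 of these 24 the left-out value lay nearer to the WT mean than to the mean of the other Wnt5a libraries. Genes called only without a library are picked for a deviating value in it. This count therefore follows from the choice of genes and is no separate support. Col18a1, which encodes a basement membrane collagen, had 11.7, 11.2 and 21.1 FPKM in Wnt5a, against 26.0, 30.4 and 33.4 FPKM in WT libraries (adjusted p = 0.0708 with all libraries). Emd, the inner nuclear membrane protein emerin, had 30.9, 32.2 and 46.2 FPKM in Wnt5a, against 57.6, 67.2 and 70.3 FPKM in WT libraries (adjusted p = 0.09). Fcgr2b and C5ar1, an inhibitory Fc receptor and the receptor of complement C5a, were at 2.79, 4.12 and 8.28 FPKM and at 0.608, 1 and 5.43 FPKM in Wnt5a, against 12.6, 14.2 and 10.1 FPKM and 6.29, 5.75 and 6.92 FPKM in WT libraries. Each of these 4 genes had its highest Wnt5a value in replicate 3, below the WT range. Fgfr1op, a centrosome protein gene, stood at 28.4, 29.9 and 23.0 FPKM in Wnt5a, above 18.7, 17.5 and 17.5 FPKM in WT libraries (0.57, SE 0.11, adjusted p = 0.0936 with all libraries). Fgfr1op was chosen after its values were seen, as were Bax, Mdm2, Top2a, Gp6, Slc6a4 and Mmrn1 above.

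Stem cell genes had a median near that of all genes. Of 47 LT-HSC genes tested 6 were higher and 2 lower at an unadjusted p below 0.05, where 5.12% and 3.97% of all genes were. None was called, and the list median was -0.05. Procr, the endothelial protein C receptor that marks stem cells, had 7.92, 8.76 and 7.90 FPKM in Wnt5a, against 4.02, 5.44 and 5.17 FPKM in WT libraries (0.65, SE 0.21, adjusted p = 0.395). Hlf, a stem cell transcription factor, had 6.82, 8.26 and 5.71 FPKM in Wnt5a, against 4.92, 4.95 and 4.55 FPKM in WT libraries (0.44, SE 0.15, adjusted p = 0.422). Both sets of values were separate, while Slamf1, which encodes CD150, overlapped at 33.1, 30.5 and 49.0 FPKM in Wnt5a and 38.2, 34.3 and 42.1 FPKM in WT libraries. Among genes of the gate, Ly6a, which encodes Sca-1, had 143, 129 and 99.1 FPKM in Wnt5a and 91.0, 85.8 and 95.7 FPKM in WT libraries (0.43, SE 0.20, adjusted p = 0.539).

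Multipotent progenitor genes had a median of 0.31, with 5 of 14 higher and 1 lower at an unadjusted p below 0.05. Of all genes 5.12% were higher and 3.97% lower. Cd53, a tetraspanin of leukocytes, had 14.9, 17.8 and 11.2 FPKM in Wnt5a, against 7.10, 6.24 and 6.39 FPKM in WT libraries (1.02, SE 0.23, adjusted p = 0.19). Plac8, a gene of early lymphoid and myeloid progenitors, had 27.4, 37.5 and 28.5 FPKM in Wnt5a, against 19.4, 19.1 and 17.04 FPKM in WT libraries (0.71, SE 0.15, adjusted p = 0.153). Both genes had their groups apart, though neither passed. Of 15 B lymphoid genes 7 were higher and 1 lower at an unadjusted p below 0.05, where 5.12% and 3.97% of all genes were. The B lymphoid median was 0.29. Cd3g, a chain of the T cell receptor complex, had 3.47, 5.11 and 2.61 FPKM in Wnt5a, against 0.256, 0.519 and 0.415 FPKM in WT libraries (1.73, SE 0.45, adjusted p = 0.308), while Cd3e was at 0 in each library. With every WT value under 1 FPKM, Cd3g passed the filter through its Wnt5a values alone, so the filter itself chose a difference. The summed level of 6 T and natural killer cell markers was 22.1, 25.3 and 14.6 FPKM in Wnt5a and 16.1, 15.8 and 11.5 FPKM in WT libraries, ranges that overlap. The part of such cells in the results was not tested.

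Wnt5a transcript was at most 0.078 FPKM in any of the 6 libraries, at or below the floor of 3 fragments per kb. Of 29 ligand, receptor and co-receptor genes in the table, 6 passed the filter and none was called. At an unadjusted p below 0.05, 1 was higher and 0 lower, where 5.12% and 3.97% of all genes were. Ror1 was at 0 and Ror2 at most 0.144 FPKM in each library. Ryk, the co-receptor measured at the highest level besides Lrp6, had 10.5, 12.2 and 11.4 FPKM in Wnt5a, against 8.52, 9.08 and 9.34 FPKM in WT libraries (0.31, SE 0.15, adjusted p = 0.557). Fzd3 had 2.06, 1.73 and 1.26 FPKM in Wnt5a, against 1.10, 1.07 and 0.637 FPKM in WT libraries (0.47, SE 0.20, adjusted p = 0.517). Neither overlapped, while Lrp6, a co-receptor of canonical Wnt ligands, was at 16.1 to 20.6 FPKM in Wnt5a and 16.6 to 21.5 FPKM in WT libraries.

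Of 31 planar polarity and small GTPase genes, 4 were higher and 2 lower at an unadjusted p below 0.05, with a median of 0.01. Of all genes 5.12% were higher and 3.97% lower, the shares to set beside the calcium and canonical Wnt counts too. Vangl1, a core planar polarity membrane protein, had 5.73, 4.72 and 4.25 FPKM in Wnt5a, against 2.77, 2.71 and 2.93 FPKM in WT libraries (0.63, SE 0.16, adjusted p = 0.268). Jun, the transcription factor at the end of the JNK branch, had 3.24, 3.41 and 5.32 FPKM in Wnt5a, against 6.58, 6.38 and 9.18 FPKM in WT libraries (-0.76, SE 0.23, adjusted p = 0.359), and the overlapping antisense gene Junos was at 0.909 to 1.32 FPKM in Wnt5a and 1.98 to 3.31 FPKM in WT libraries. Of 30 calcium, calcineurin and NFAT genes 3 were higher and 2 lower (median -0.02). Calm3, one of the calmodulin genes, had 247, 248 and 320 FPKM in Wnt5a, against 325, 349 and 350 FPKM in WT libraries (-0.34, SE 0.11, adjusted p = 0.395). Of 15 canonical Wnt targets and feedback genes 0 were higher and 1 lower (median 0.07). Hoxb2 and Hoxb5os were the Hoxb cluster genes past the filter, with Hoxb2 at 2.93 to 4.27 FPKM in Wnt5a and 3.10 to 3.40 FPKM in WT libraries (0.05, SE 0.19).

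Transcripts of the mitochondrial genome had higher values in Wnt5a while nuclear genes for ribosomes and respiration had lower ones, by small amounts and with no gene called. Of 11 mitochondrially encoded messenger RNAs, 5 were higher and 0 lower at an unadjusted p below 0.05, where 5.12% and 3.97% of all genes were. The median of these messenger RNAs was 0.35. The gene mt-Co1, a subunit of cytochrome oxidase, had 2395, 2074 and 2096 FPKM in Wnt5a, against 1613, 1596 and 1550 FPKM in WT libraries (0.46, SE 0.12, adjusted p = 0.308). It overlaps mt-Ts1, a transfer RNA gene on the other strand that alone made up 58.4%, 54.0% and 55.5% of the summed FPKM of the Wnt5a libraries and 51.5%, 52.6% and 51.7% of that of the WT libraries. These shares did not overlap either, and their part in the mitochondrial values was not tested. The gene mt-Cytb, a subunit of complex III, had 4254, 3615 and 3786 FPKM in Wnt5a, against 2961, 2978 and 2981 FPKM in WT libraries (0.38, SE 0.10, adjusted p = 0.308). Each Wnt5a value of these genes was above each WT value.

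All 75 cytosolic ribosomal protein genes tested had a negative log2 fold change, from -0.33 to -0.04 with a median of -0.16, and the values of 59 did not overlap between groups, where 10.9% of all genes had lower values without overlap. At an unadjusted p below 0.05, 10 (13.3%) were lower, where 3.97% of all genes were, and 3 without Wnt5a replicate 3, where 5.83% were. With quantile normalization the median was -0.12 and with the trend along transcript length removed -0.14. In the first of these 72 of 75 were negative. Of 73 nuclear oxidative phosphorylation genes 61 were negative, with a median of -0.11. At an unadjusted p below 0.05, 7 of them (9.59%) were lower, where 3.97% of all genes were. Glycolysis genes had a median of -0.16, with 5 of 28 lower and 1 higher, where 3.97% and 5.12% of all genes were. Pgam1, phosphoglycerate mutase, had 312, 308 and 358 FPKM in Wnt5a, against 388, 389 and 434 FPKM in WT libraries (-0.31, SE 0.09, adjusted p = 0.359). Fold changes varied little with transcript length: of 10513 coding genes split into 5 groups by length, the shortest (up to 1924 bp) had a median of -0.03 and the longest 0.04.

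Of 28 immediate early genes 4 had an unadjusted p below 0.05 with lower values and 0 with higher (median -0.12). Of all genes 3.97% were lower and 5.12% higher, the shares to set beside the interferon and heat shock counts too. Socs3, a feedback inhibitor of cytokine signalling, had 3.35, 2.71 and 5.29 FPKM in Wnt5a, against 6.78, 6.11 and 6.76 FPKM in WT libraries (-0.69, SE 0.20, adjusted p = 0.343). Interferon response genes had a median of 0.10 with 3 of 39 higher and 2 lower, and heat shock and chaperone genes one of -0.09 with 0 of 31 higher and 2 lower. Without Wnt5a replicate 3, 7.13% of all genes were higher and 5.83% lower. The counts higher and lower were then 3 and 5 for immediate early, 8 and 2 for interferon and 0 and 6 for heat shock genes. They were 5 and 5 for planar polarity, 4 and 4 for calcium and 1 and 1 for canonical Wnt genes, and 6 and 3 for LT-HSC genes. Il1b, a cytokine of myeloid cells, had 70.9, 56.1 and 137 FPKM in Wnt5a, against 166, 259 and 181 FPKM in WT libraries, with no overlap (-1.27, SE 0.49, adjusted p = 0.482). Its antisense gene Il1bos had 10.7, 10.8 and 13.3 FPKM in Wnt5a, against 24.4, 24.5 and 21.6 FPKM in WT libraries, and without strand information the reads of the 2 genes cannot be told apart. Il1b was chosen after its values were seen.

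The same label was tested in the DERARE knockout in libraries that share none with those above. KO Wnt5a against KO Ctrl gave 43 higher (0.359%) and 110 lower (0.918%) genes of 11982, 1.28% in all. At an unadjusted p below 0.05, 6.27% were higher and 5.12% lower there. Across all genes the 2 effects of the Wnt5a label correlated at 0.08 (Pearson, over genes, which are not independent). Of the 614 genes higher in wild type at an unadjusted p below 0.05, 407 (66.3%) were positive in the knockout, where 59.3% of all genes were. Of the 476 lower ones 143 (30.0%) were positive there.

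The interaction asks whether the Wnt5a effect in wild type differs from that in the knockout, and 6 genes passed (0.0501%), 5 with a positive (0.0417%) and 1 with a negative difference (0.00835%). Prss34 was at 0, 0 and 0.024 FPKM in KO Wnt5a and at 0 in the KO Ctrl libraries, and the difference was 5.07 (SE 0.33, adjusted p = 1.87e-07). Mcpt8 had 2.85, 3.08 and 3.996 FPKM in KO Wnt5a, against 0, 0 and 0.564 FPKM in KO Ctrl libraries, and it rose in the knockout too (log2 fold change 1.88, SE 0.31, adjusted p = 0.00382). The difference for Mcpt8 did not pass (0.87, SE 0.44, adjusted p = 0.783). Cdkn1a had 34.7, 37.3 and 34.6 FPKM in KO Wnt5a, against 113, 93.6 and 88.9 FPKM in KO Ctrl libraries, and fell there by 1.44 on the log2 scale (adjusted p = 0.00129), with a difference of 0.45 (SE 0.30, adjusted p = 0.847). Cdkn2b fell in the knockout as well (-1.98, SE 0.33, adjusted p = 0.0034).

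**Figure D5:**
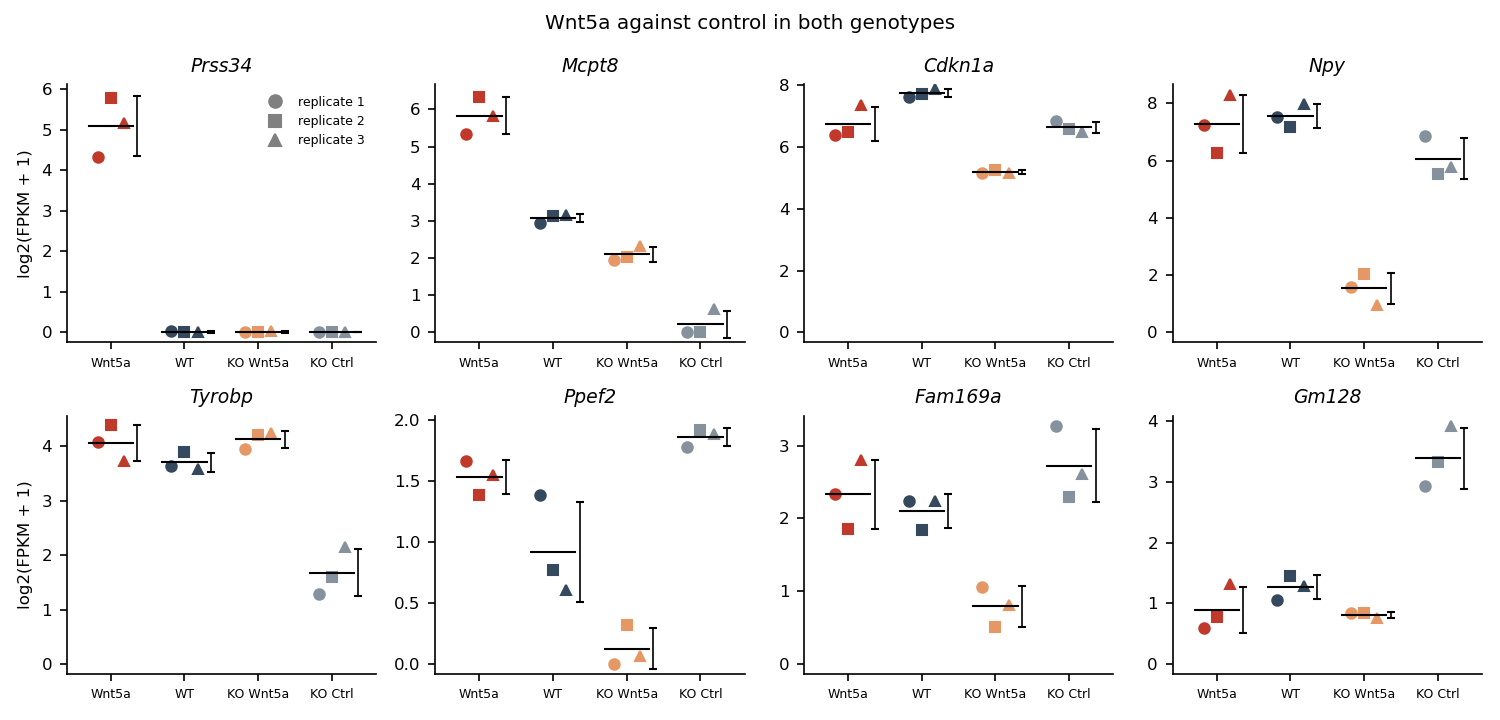
Level of 8 genes as log2(FPKM + 1) in the Wnt5a, WT, KO Wnt5a and KO Ctrl libraries, with the mean as a line and 1 SD as a bar (n = 3). Prss34 is at 19.1 to 54.2 FPKM in Wnt5a and at or near 0 in the other groups, while Mcpt8 is higher and Cdkn1a lower with the Wnt5a label in both genotypes.

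The other 5 genes were called in the knockout pair and not in wild type. Npy, which encodes neuropeptide Y, had 152, 75.5 and 313 FPKM in Wnt5a and 184, 143 and 251.4 FPKM in WT libraries, which overlap. It fell to 2.04, 3.16 and 0.949 FPKM in KO Wnt5a, against 116, 45.2 and 54.0 FPKM in KO Ctrl libraries (difference 4.23, SE 0.63, adjusted p = 0.0242). Tyrobp, an adaptor of activating receptors, had 15.9, 19.9 and 12.2 FPKM in Wnt5a and 11.4, 13.9 and 10.97 FPKM in WT libraries. In KO Wnt5a it rose to 14.4, 17.4 and 17.8 FPKM, against 1.45, 2.02 and 3.42 FPKM in KO Ctrl libraries (difference -2.09, SE 0.27, adjusted p = 0.002). The other 3 were Ppef2, Fam169a and Gm128, with differences of 2.35, 2.16 and 2.21.

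By list, the effects of the label parted most for mitochondrially encoded messenger RNAs, with medians of 0.35 in wild type and -0.38 in the knockout. The difference was positive at an unadjusted p below 0.05 for 10 of 11 and negative for 0, where 3.35% and 3.17% of all genes were. The smallest adjusted p was 0.057, for mt-Nd5. The KO Ctrl libraries differed in depth, with 22200000, 37100000 and 39900000 fragments in replicates 1 to 3. The share of mt-Ts1 in their summed FPKM was 33.4%, 56.2% and 53.8%, against 49.9%, 41.9% and 50.4% in KO Wnt5a. The part of these differences in the knockout median was not tested. Mitotic genes had medians of 0.32 and 0.04, and 13 of 71 had a positive difference at an unadjusted p below 0.05. For p53 targets the medians were -0.23 and -0.15, and for megakaryocyte and platelet genes -0.23 and -0.55. The difference for Vangl1 was 1.21 (SE 0.22, adjusted p = 0.0566), with 4.90, 4.34 and 5.21 FPKM in KO Wnt5a and 6.39, 7.51 and 9.53 FPKM in KO Ctrl libraries.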

How the data were processed

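Per the labels' protocols, LT-HSC cDNA came from SMARTer amplification and libraries from Nextera fragmentation, which keeps no strand. TopHat2 2.0.10, Cufflinks, CASAVA 1.8.2 and mm10 are listed in the submitters' processing notes. The authors deposited FPKM for 44349 genes in 18 columns; the annotation release is not given in the sources used here. Symbols and positions came from GENCODE M21 (GRCm38, the same assembly), which matched 44022 identifiers and not the other 327. The 33 missing values, in 16 genes, took those genes out.

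From these values, log2(FPKM + 1) of 11982 genes was fitted with 1 mean per group over all 18 libraries, which share 1 spread per gene, in limma 3.58.1 (R 4.3.3, intensity trend, robust moderation). P-values were adjusted by Benjamini-Hochberg over all genes tested, and a gene was called below 0.05. Figures used matplotlib 3.10.9. On simulated data for Wnt5a against WT with 200 of 11982 genes changed, 84% of 2-fold and 98% of 4-fold changes were called, with 14 false calls. The changed genes were drawn only from those with a WT mean log2(FPKM + 1) above 2. The noise was normal, with no library set apart as Wnt5a replicate 3 was. These shares therefore do not cover genes near or at 0 in WT, such as Prss34.

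The libraries, gene lists (35, with 1172 entries) and alternatives were chosen with earlier results of these data known. Lists are described by counts and medians and were not tested. Named genes are every called gene; the 15 largest changes each way at an unadjusted p below 0.01 with separate groups and at least 5 FPKM in the higher, without predicted gene models and pseudogenes; up to 4 with the smallest p per list; and the Wnt receptor, gate, Hoxb and cell type marker genes. Alternatives were another pseudocount (0.1), other filters, quantile and median-ratio scaling, fewer libraries in the fit and no moderation trend. Others were library weights, replicate block and leaving out each Wnt5a or WT library. Removal of a trend along transcript length was added after the data were seen.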

Additional observations from a re-analysis of the deposited data

Results flagged for a closer look

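In 6 genes the effect of the Wnt5a label differed between wild type and the knockout by the interaction test over all genes, with a limma adjusted p below 0.05. On the log2(FPKM + 1) scale the difference, wild type minus knockout, was 5.07 for Prss34, 2.35 for Ppef2, -2.09 for Tyrobp, 2.21 for Gm128, 2.16 for Fam169a and 4.23 for Npy. Ppef2, a protein phosphatase gene, had 2.17, 1.62 and 1.92 FPKM in Wnt5a against 1.61, 0.706 and 0.524 FPKM in WT libraries, and 0, 0.245 and 0.046 FPKM in KO Wnt5a against 2.43, 2.78 and 2.70 FPKM in KO Ctrl libraries. Fam169a had 4.03, 2.63 and 5.96 FPKM in Wnt5a against 3.71, 2.57 and 3.72 FPKM in WT libraries, and 1.09, 0.418 and 0.751 FPKM in KO Wnt5a against 8.64, 3.90 and 5.13 FPKM in KO Ctrl libraries. Gm128 had 0.512, 0.702 and 1.48 FPKM in Wnt5a against 1.09, 1.74 and 1.44 FPKM in WT libraries, and 0.793, 0.783 and 0.683 FPKM in KO Wnt5a against 6.61, 9.04 and 14.1 FPKM in KO Ctrl libraries.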

How the results depend on the processing

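The 8 genes called for Wnt5a against WT became 4 with a pseudocount of 0.1, 2 with a mean of at least 5 FPKM, and 15 with only the 6 libraries. Library weights gave 1843, from a weight estimate that stopped before it converged. The other settings stayed within 1.5 times, at 7 to 12. Leaving out each Wnt5a or WT library gave 3 to 32, the fewest without WT replicate 2 and the most without Wnt5a replicate 3. The interaction, with 6 genes, gave 12 with a pseudocount of 0.1 and 13 with no filter. It gave 10 with 1 FPKM in 3 of 18 libraries and 18 with quantile normalization. With a mean of at least 5 FPKM it gave 3, and with library weights 50. Leaving out each of the 6 Wnt5a and WT libraries gave 3 to 24. The fewest came without WT replicate 1 and the most without Wnt5a replicate 2. No KO Wnt5a or KO Ctrl library was left out, so this range does not cover the knockout side of the interaction. The causes were not tested. With replicate number as a block, 12 genes were called (9 higher, 3 lower), and 17 in the interaction. Deviations of same-numbered libraries correlated at -0.001, 0.084 and -0.001, and Wnt5a replicate 1 correlated best with another number, so the numbers were not taken to pair the libraries.

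Of 2021 values for named genes under the alternatives, 1845 kept direction and side of the threshold, and 11 changed sign, in genes near 0 and never called. Lrp6 was at 0.04 with library weights and Hoxb2 at -0.01 with quantile normalization. With a library left out, Fzd6 ranged over -0.10 to 0.09, Lrp6 -0.17 to 0.05, Znrf3 -0.03 to 0.16, Kit -0.13 to 0.23 and Hoxb2 -0.08 to 0.13. Of 611 list medians 36 moved by more than the spread between replicates. The median of all genes was 0.02, and 0.00 and -0.02 with quantile and median-ratio scaling. Changes in genes near 1 FPKM are limited by the depth and the pseudocount.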
